A study of Pyrus calleryana with 9 samples.

Results

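The later part of cold stratification of callery pear (Pyrus calleryana) seeds was examined by setting the 3 RNA-seq libraries of seeds kept for 50 d in the cold against the 3 libraries of seeds kept for 20 d, which are 6 of the 9 libraries of the series. All seeds came from mature fruits of garden-grown trees, took up water for 24 h and were then laid on wet filter paper at 4 °C, so the cold and the imbibition are common to both stages, which are labelled by their time in the cold. Reads had been aligned to the genome of another species, the wild pear P. betuleafolia, whose gene identifiers and coordinates are used here. The other 3 libraries are of imbibed seeds without stratification (0 d), and they served to estimate the spread between replicates and to test whether the late change differed from the early one. Each library is from a bulk of whole seeds, harvested as replicate A, B or C. In each replicate 45 seeds were frozen for RNA sequencing and physiological measurements together, and the number used for a library is not stated. Whole seeds hold embryo, endosperm remnant and seed coat, and in such a bulk fewer cells of a type and less RNA per cell cannot be told apart.

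Cold stratification is the moist chilling that releases many temperate seeds from dormancy. A dry seed keeps oil in oil bodies coated with oleosins, protein in globulins, and a set of late embryogenesis abundant (LEA) proteins made during maturation on the mother plant. In a seed that becomes able to germinate these maturation transcripts decline, cell walls are loosened, the cell cycle starts again and the embryo prepares for a life in light.

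Of 59552 genes in the table, 28339 had enough counts to be tested. A gene was called where the edgeR quasi-likelihood test gave a Benjamini-Hochberg adjusted p of at most 0.01, the log2 fold change (50 d over 20 d) was at least 1 in either direction, and the mean expression was at least 1 FPKM (fragments counted on a gene, scaled by gene length and library depth) in at least 1 of the stages. By this rule 470 genes were called, 1.66% of those tested. Of these, 398 were higher at 50 d (1.40% of the tested genes) and 72 were lower (0.254%), so that 84.7% of the called genes rose. The libraries of 50 d and 20 d did not overlap for any of the 470, whereas 25.8% of all tested genes had no overlap. The median log2 fold change over all tested genes was -0.06.

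Most called rises were of genes weakly expressed before. The 398 higher genes had a median of 10.7 FPKM at 50 d, against 0.636 FPKM at 20 d and 0.301 FPKM at 0 d, and a median log2 fold change of 3.93. For 227 of them the 20 d mean was below 1 FPKM, and 24 had no count in any 20 d library. The 72 lower genes had medians of 6.16 FPKM at 50 d, 29.3 FPKM at 20 d and 70.6 FPKM at 0 d, and a median log2 fold change of -2.46. A Swissprot name was given for 336 of the higher and 52 of the lower genes.

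**Figure D1:**
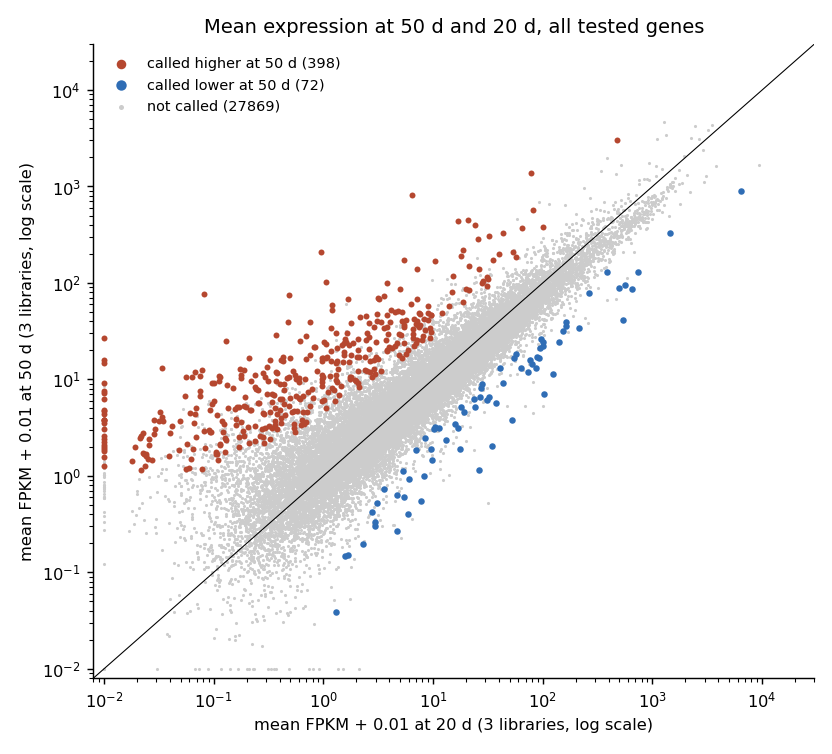
Mean FPKM at 50 d (vertical axis) against mean FPKM at 20 d (horizontal axis) for the 28339 tested genes, both on log scales with 0.01 added and means of 3 libraries. Red points are the 398 genes called higher at 50 d, many of them at the left edge where 20 d expression was close to 0, and blue points are the 72 called lower, which lie mostly among genes of moderate to high expression at 20 d.

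The total of counts was 13893019 to 16228340 in the 6 libraries. Replicate B of 20 d and replicate C of 50 d stood apart from their stages. The correlation of log2 depth-scaled counts was 0.883 and 0.892 between 20 d B and its partners, which shared 0.975, and 0.90 and 0.924 between 50 d C and its partners, which shared 0.962. Their deviations from the stage means followed gene length in the same direction (Spearman -0.593 for 50 d C and -0.588 for 20 d B) and in the opposite direction in the remaining libraries of both stages (0.369 to 0.534), and the fold change itself was nearly unrelated to length (Spearman 0.02). Without both libraries 904 genes were called, 443 of the 470 among them. The number of calls moved with other libraries as well, to 99 without 20 d A, 75 without 20 d C, 191 without 50 d A, 134 without 50 d B, and 260, 279 and 296 without 0 d A, B and C. With the 0 d libraries left out of the fit no gene was called by edgeR, where the lowest adjusted p was 0.0105 and 4891 genes had an unadjusted p below 0.05, and all 470 genes then had an adjusted p of at most 0.05. DESeq2 called 1620 genes. The direction of all 470 genes was kept in each of 22 other settings. This was largely fixed beforehand, since none of these genes overlapped between the stages and some settings reuse the same fold change. Of 70 genes named by a fixed rule, which takes the largest changes and the most expressed called gene of each list, 70 were called by DESeq2, 69 without 20 d B and 50 d C, 66 without 20 d B and 20 without 20 d C. Genes marked † lie outside that rule and were chosen after their values were seen. Among the 22 settings, no call can be lost without an FPKM limit or at an adjusted p of 0.05, which only loosen the limits for a call.

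**Figure D2:**
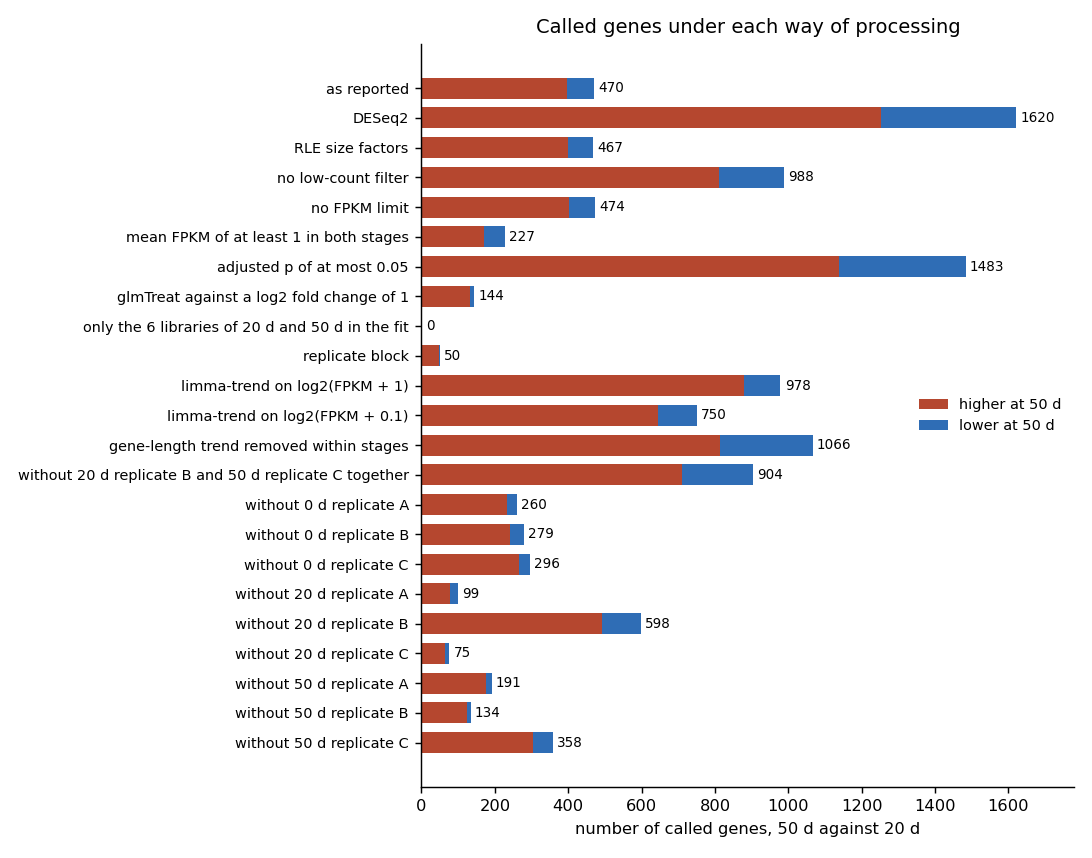
Number of genes called higher (red) and lower (blue) at 50 d under the main setting and 22 others, with the total beside each bar. The totals run from 0 in the fit of the 6 libraries alone to 1620 with DESeq2, with 470 in the main setting, and rises outnumber falls wherever genes were called.

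Functions were grouped into 72 lists by Swissprot name and Pfam domain, of which 57 held at least 1 called gene. Each list is described by its counts and by its median log2 fold change, beside the 1.40% higher and 0.254% lower among all tested genes and their median of -0.06. The lists were chosen with earlier results of these data known, and no test was made of a list. The counts within lists depended on the libraries as the totals did, and were lowest without 20 d A or 20 d C for flavonoid synthesis (4 calls left), PR and Bet v 1 proteins (6), lipid transfer proteins (1), aquaporins (1), beta-glucosidases (3), glycolysis (2), sucrose metabolism (1), core histones (1) and gibberellin genes (0). Without 20 d B the same lists except sucrose metabolism had their highest counts of such fits, from 6 for gibberellin genes to 20 for PR and Bet v 1 proteins.

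**Figure D3:**
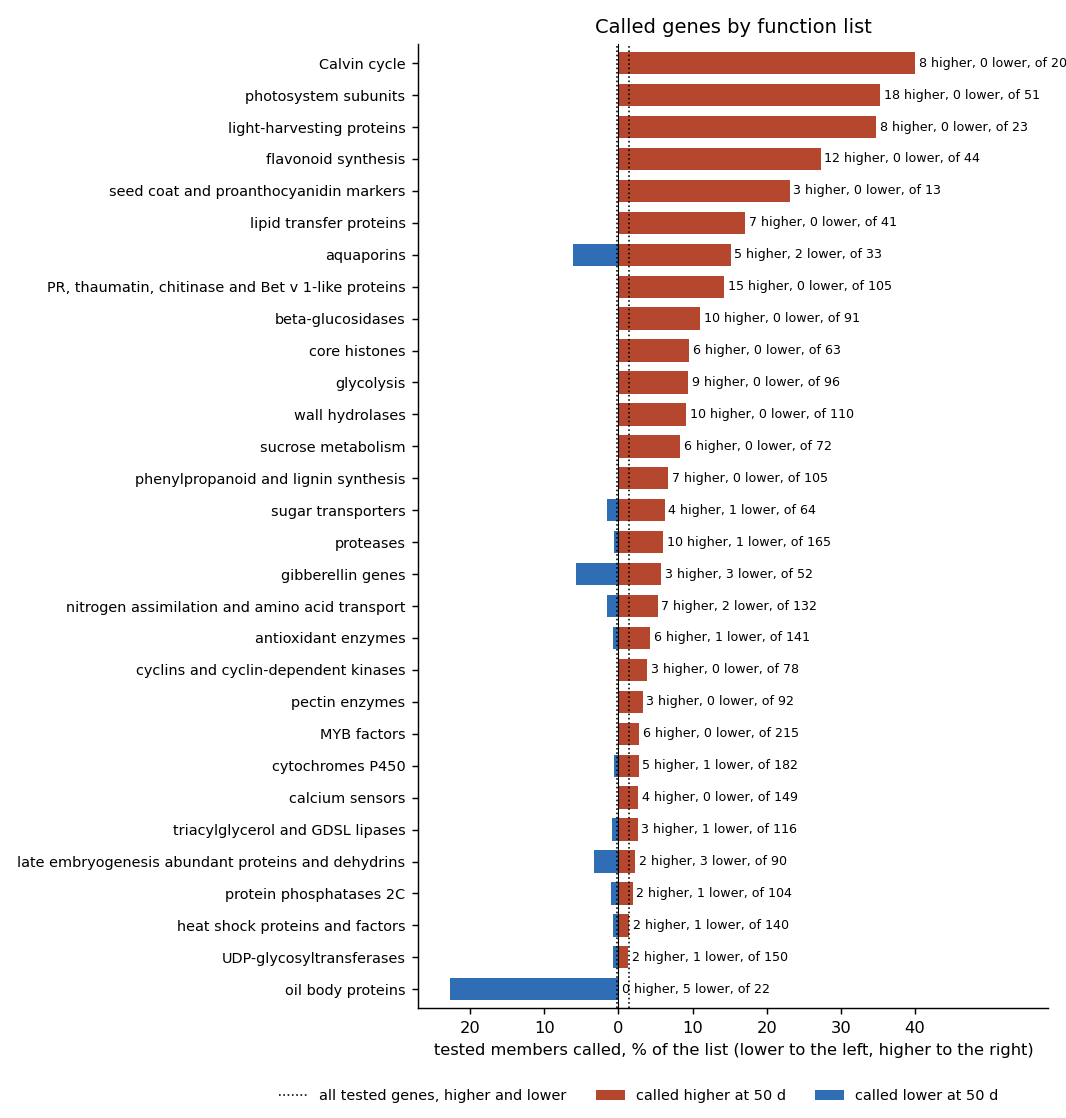
Share of the tested members of each function list that were called higher (red, to the right) or lower (blue, to the left) at 50 d, for the lists with at least 10 tested and 3 called genes, with the numbers beside each bar. Dotted lines mark the shares over all tested genes, 1.40% higher and 0.254% lower. Photosynthesis lists reach furthest to the right and oil body proteins furthest to the left.

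Genes of the photosynthetic apparatus held the largest shares of called genes of all lists. Light-harvesting proteins bind chlorophyll in the antennae, photosystem subunits and their partners carry electrons in the thylakoid, and the Calvin cycle fixes carbon dioxide. Together these 3 lists held 92 tested genes, of which 33 (35.9%) were called higher and none was called lower, with a median log2 fold change of 2.23. By list, 18 of 51 photosystem genes rose (median 2.31), 8 of 23 light-harvesting genes (median 2.38) and 8 of 20 Calvin cycle genes (median 1.5), with a photosystem I chlorophyll-binding protein counted under 2 lists. The median over the 3 lists was 2.15 for 50 d A and B over 20 d A and C, and 2.41 for 50 d C over 20 d B, so the shift was of like size in both kinds of library. Leaving out any 1 library left 4 to 22 calls among the photosystem genes, 3 to 9 among the light-harvesting genes and 4 to 9 in the Calvin cycle.

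The small chain of Rubisco (Chr17.g27381, chromosome 17, 25605932 to 25607418 of the wild pear assembly), the carbon-fixing enzyme, had 157, 183 and 183 FPKM in the 50 d libraries, against 1.97, 9.48 and 4.91 FPKM in those of 20 d. This was a log2 fold change of 4.98 ± 0.51 (SE; edgeR adjusted p = 0.000905), and the lowest 50 d library lay far above the highest 20 d library. A second small-chain gene (Chr16.g31089†), and Rubisco activase (Chr4.g39844†), which keeps the enzyme active, rose too, to means of 38.1 and 149 FPKM at 50 d, against 2.58 and 21.2 FPKM at 20 d. Sedoheptulose-1,7-bisphosphatase (Chr7.g32418†), which acts in the regeneration part of the cycle, had 49.0, 62.7 and 45.4 FPKM at 50 d, against 1.13, 0.659 and 1.75 FPKM at 20 d.

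Oxygen-evolving enhancer protein 1 (Scaffold4.g17391), which stabilises the manganese cluster that splits water, had 49.3, 69.3 and 98.7 FPKM at 50 d, against 2.82, 2.10 and 5.70 FPKM at 20 d (log2 fold change 4.33 ± 0.52 SE, edgeR adjusted p = 0.00145). The minor antenna protein CP26 (Chr5.g09614) had 33.1, 58.6 and 43.2 FPKM at 50 d, against 1.46, 3.39 and 2.39 FPKM at 20 d (log2 fold change 4.20 ± 0.41 SE, edgeR adjusted p = 0.000844). Neither gene overlapped between the stages, and each call was lost in only 1 of the 22 other settings, the fit without the 0 d libraries. The called subunits came from photosystem II (psbY and W proteins, oxygen-evolving enhancers 1, 2 and 3), from the cytochrome b6-f complex, plastocyanin and photosystem I (subunits II, III, IV, V and XI), with log2 fold changes of 1.91 to 5.60. The 2 ferredoxin-NADP reductases that were called (Chr2.g42203† and Chr15.g02675†), which the list does not hold, had log2 fold changes of 4.13 and 3.67.

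In chlorophyll synthesis, of 29 tested genes only protochlorophyllide reductase (Chr11.g12680), the light-dependent step of the pathway, was called, with 138, 126 and 89.8 FPKM at 50 d, against 11.9, 16.3 and 17.5 FPKM at 20 d (log2 fold change 2.94 ± 0.33 SE, edgeR adjusted p = 0.00123), and the list median was 0.59. The list of light receptors and clock genes had no called gene among 54 tested (median 0.03). One chloroplast ribosomal protein, S5 (Chr10.g14207), was called among 161 organellar ribosomal proteins (median 0.09).

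**Figure D4:**
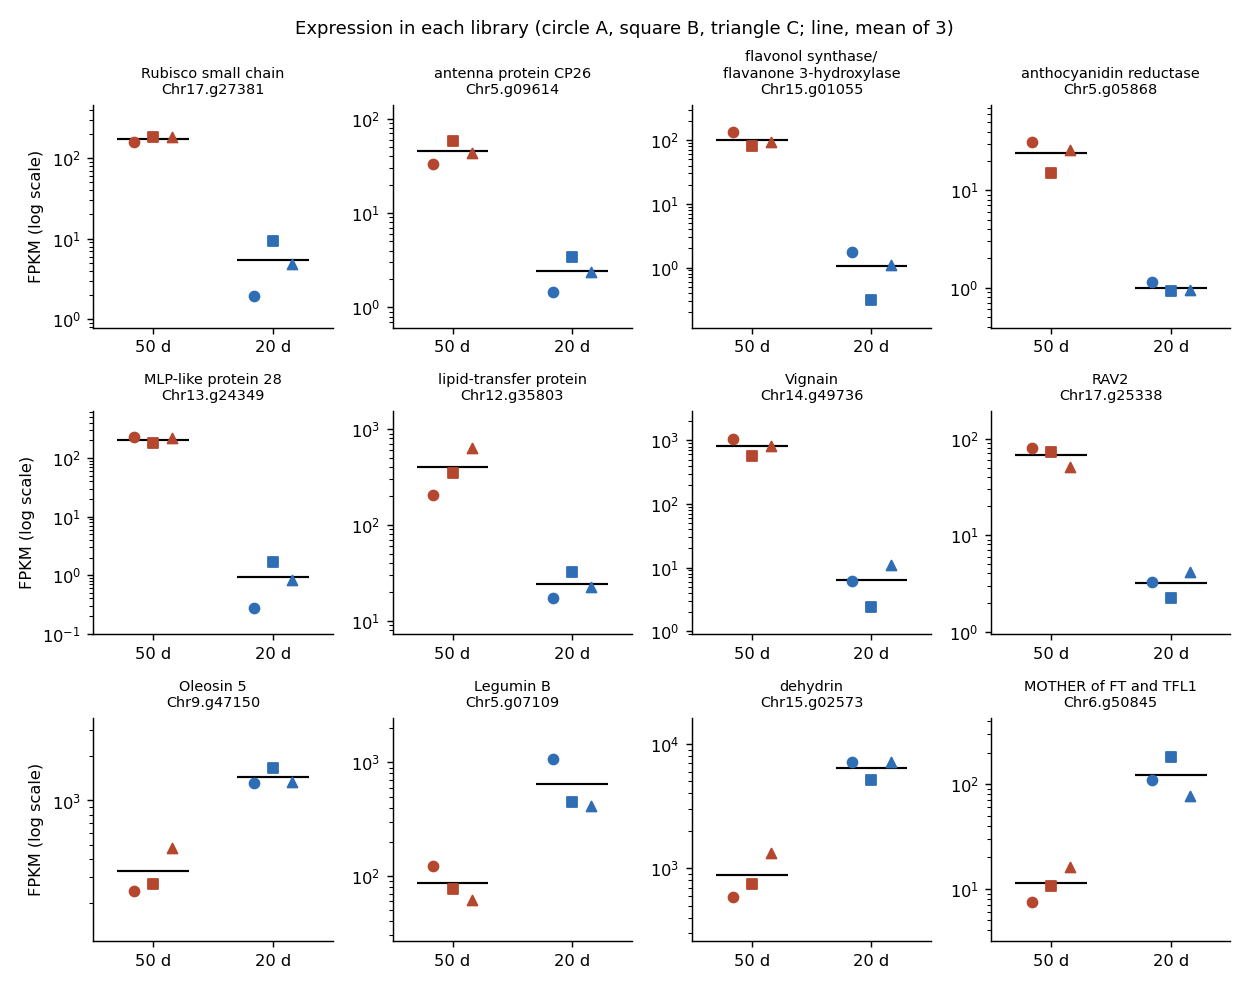
FPKM of 12 named genes in the 50 d libraries (left, red) and 20 d libraries (right, blue), on log scales, with circles for replicate A, squares for B, triangles for C and a line at the mean of 3. In the upper 8 panels every 50 d library lies above every 20 d library and in the lower 4 panels the order is turned round.

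Flavonoid synthesis, the pathway to flavonols, anthocyanins and the condensed tannins of seed coats, rose with 12 of 44 tested genes (27.3%) and no called fall, and its median log2 fold change was 1.41. The calls ran along the pathway, from chalcone isomerase types (3 genes) over naringenin 3-dioxygenase (2 genes) and flavonoid 3'-monooxygenase to the branch enzymes. Flavonol synthase/flavanone 3-hydroxylase (Chr15.g01055) had 133, 81.3 and 91.9 FPKM at 50 d, against 1.74, 0.307 and 1.11 FPKM at 20 d (log2 fold change 6.57 ± 0.71 SE, edgeR adjusted p = 0.00123). Anthocyanidin reductase (Chr5.g05868), which makes the flavan-3-ol units of tannins, had 31.6, 15.1 and 26.1 FPKM at 50 d, against 1.15, 0.925 and 0.937 FPKM at 20 d (log2 fold change 4.57 ± 0.39 SE, edgeR adjusted p = 0.000607). Both lost their calls only in the fit without the 0 d libraries.

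The chalcone synthase domain, the fold of the enzymes that open this pathway, was among the Pfam domains with the largest share of calls, with 5 of 12 tested genes higher and a median log2 fold change of 3.33. The called members carried names of related enzymes, polyketide synthases 1 and 5 and 4-hydroxycoumarin synthase 1, and not of chalcone synthase. Polyketide synthase 5 (Chr4.g38114†) had 66.2, 32.2 and 33.6 FPKM at 50 d, against 1.34, 2.76 and 2.40 FPKM at 20 d. Upstream, 7 of 105 phenylpropanoid and lignin genes rose (median 0.54), with trans-cinnamate 4-monooxygenase (Chr11.g10098), the second enzyme of the general pathway, at 115, 103 and 83.5 FPKM at 50 d, against 34.4, 29.0 and 19.9 FPKM at 20 d, and 2 genes of phenylalanine ammonia-lyase 1 (Chr4.g39447† and Chr12.g36529†), the entry enzyme, at means of 6.68 and 11.2 FPKM at 50 d, against 0.0649 and 0.169 FPKM at 20 d.

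Since tannins are made in the seed coat, markers of that tissue are given beside these genes. Of 13 tested seed coat and proanthocyanidin markers 3 were called higher, and all 3 (leucoanthocyanidin reductase Chr6.g51013† and anthocyanidin reductases Chr5.g05868 and Chr10.g13984†) are themselves members of the flavonoid list. Of the 13, 8 had a log2 fold change above 0. The stages did not overlap for 11 of them (84.6%, beside 25.8% over all tested genes), 8 higher and 3 lower at 50 d. The summed expression of the markers was 128 to 180 FPKM at 50 d and 79.1 to 95.7 FPKM at 20 d. Laccase-15 (Chr7.g31506†), another marker of the list, was at 8.65 FPKM at 50 d and 13.2 FPKM at 20 d (log2 fold change -0.62, not called), and TRANSPARENT TESTA GLABRA 1 (Chr1.g56431†) at 30.8 FPKM at 50 d and 36.5 FPKM at 20 d (-0.26, not called). Of all 22 markers, 9 had too few counts to be tested, 1 of them without any count, and the leucoanthocyanidin reductase had no count at 20 d. The part of a changed share of seed coat in the flavonoid result was not tested.

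Defence-type and cell-surface proteins formed the next group. Members of the Bet v 1 family, small ligand-binding proteins that include the pollen allergens and the major latex proteins (MLP), gave 14 calls among 43 tested genes with that Pfam domain, all higher, and a median log2 fold change of 1.74. In the wider list of pathogenesis-related (PR) proteins, thaumatins and chitinases, 15 of 105 rose (median 0.69), of which 1 was an endochitinase and 14 were of the Bet v 1 family. MLP-like protein 28 (Chr13.g24349) had 225, 180 and 216 FPKM at 50 d, against 0.273, 1.69 and 0.835 FPKM at 20 d (log2 fold change 7.77 ± 0.64 SE, edgeR adjusted p = 0.000607). On the same stretch of chromosome 13, Chr13.g24346† and Chr13.g24347†, had 608 and 923 counts over the 50 d libraries and none at 20 d, which against a floor of 3 counts over the 20 d libraries makes them at least 180-fold and at least 273-fold higher at 50 d. The second of these carries the Swissprot name of a mitochondrial protein, AtMg00810, although 1 of its Pfam domains is Bet v 1. Such tandem copies may share reads, and the sources do not say how reads with several matches were counted.

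Lipid transfer proteins, which carry lipids to the cell surface and cuticle, rose with 7 of 41 genes (median 0.76) and included some of the largest gains in FPKM. Non-specific lipid-transfer protein A (Chr2.g43070) had 1260, 856 and 2050 FPKM at 50 d, against 79.0, 104 and 50.0 FPKM at 20 d (log2 fold change 4.13 ± 0.59 SE, edgeR adjusted p = 0.00314). A further member (Chr12.g35803) had 207, 351 and 642 FPKM at 50 d, against 17.2, 31.9 and 22.6 FPKM at 20 d, and another (Chr4.g40209) had 207, 390 and 723 FPKM, against 7.04, 26.4 and 17.3 FPKM. In all 3 genes the stages were clearly apart. The call of Chr4.g40209 was lost in 11 of 22 settings and that of Chr12.g35803 in 1.

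The largest gain in FPKM among named genes was of a type 2 metallothionein, a cysteine-rich metal binder (Chr4.g39784), with 2260, 1870 and 4920 FPKM at 50 d, against 382, 601 and 458 FPKM at 20 d (log2 fold change 2.62 ± 0.41 SE, edgeR adjusted p = 0.00449). Its neighbour Chr4.g39785 had 279, 365 and 460 FPKM at 50 d, against 67.3, 71.7 and 56.6 FPKM at 20 d. Among redox genes, 6 of 141 antioxidant enzymes were higher and 1 was lower (median 0.26). The higher ones included thioredoxin H2 (2 genes) and ascorbate peroxidases (2 genes). The lower one, 1-Cys peroxiredoxin (Chr13.g23214), an antioxidant typical of mature seeds, had 86.1, 53.1 and 124 FPKM at 50 d, against 439, 616 and 419 FPKM at 20 d.

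Enzymes that loosen or digest the cell wall were called in 1 direction only. Of 110 wall hydrolases 10 rose (9.09%, median 0.57), and these were 5 glucan endo-1,3-beta-glucosidases, which cleave callose, 2 beta-D-xylosidases, 2 beta-galactosidases and endoglucanase 8 (Chr16.g31276), a cellulase type at 21.4, 27.7 and 11.9 FPKM at 50 d, against 3.34, 0.685 and 2.13 FPKM at 20 d. Calls in this list fell to 1 without 20 d A or without 20 d C. Of 30 expansins, which loosen walls without hydrolysis, only expansin-A11 (Chr15.g04874) was called, with 18.8, 11.1 and 21.6 FPKM at 50 d, against 3.81, 2.06 and 1.27 FPKM at 20 d (log2 fold change 2.82 ± 0.45 SE, edgeR adjusted p = 0.00524). In the pectin list 3 of 92 rose, a polygalacturonase, a pectate lyase and a pectin acetylesterase. Cellulose synthases and COBRA proteins had no call among 34 (median 0.11). A separate list of endosperm wall-weakening markers, of endo-beta-mannanase and beta-1,3-glucanase types, also had none among 10 tested. Their summed levels were 20.1 to 22.6 FPKM at 50 d and 24.9 to 37.4 FPKM at 20 d. The 5 called glucan endo-1,3-beta-glucosidases are not in that list, so it does not cover all enzymes of this type.

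Aquaporins, the water channels of the plasma membrane and the vacuole, changed in opposite directions by type. Of 33 tested 5 rose, namely TIP1-3, TIP2-1 (2 genes), PIP2-2 and PIP2-5, and 2 fell, both TIP3-2, the vacuolar form known from maturing seeds. PIP2-5 (Chr12.g36494†) had 11.6, 24.9 and 14.9 FPKM at 50 d, against 0.223, 0.588 and 0.456 FPKM at 20 d. TIP3-2 (Chr14.g50630) had 26.7, 15.6 and 23.7 FPKM at 50 d, against 124, 86.7 and 89.1 FPKM at 20 d (log2 fold change -2.20 ± 0.37 SE, edgeR adjusted p = 0.00651).

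Proteases that break down reserves included one of the largest gains in FPKM. Vignain (Chr14.g49736, chromosome 14, 19845295 to 19847324), a cysteine protease known from germinating legume seeds, had 1060, 572 and 812 FPKM at 50 d, against 6.09, 2.41 and 10.8 FPKM at 20 d (log2 fold change 6.97 ± 0.73 SE, edgeR adjusted p = 0.000988), and its call was lost only in the fit without the 0 d libraries. A second vignain (Chr13.g23588†) and RD21C (Chr2.g42662†), a further papain-type protease, had means of 326 and 198 FPKM at 50 d, against 43.1 and 39.6 FPKM at 20 d. In the protease list as a whole 10 of 165 rose and 1 fell (median 0.20), and of 26 genes with a papain domain 5 rose. Calls in the protease list ranged from 1 (without 20 d A or 20 d C) to 13 (without 20 d B).

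Sugar metabolism showed calls in several enzymes rather than a shift of the whole. In the sucrose list 6 of 72 rose (median 0.38), among them sucrose synthases 5 and 6, which cleave sucrose, and 2 soluble beta-fructofuranosidases (invertases). Sucrose synthase 6 (Chr6.g50735†) had 4.15, 5.18 and 2.82 FPKM at 50 d, against 0.0223, 0.0252 and 0.0227 FPKM at 20 d, which rests on 590 counts over the 50 d libraries and 3 over those of 20 d, a ratio of 174 with a 95% counting interval of 59.4 to 848 (counting error only). The called member of this list with the highest expression was 6-phosphofructokinase 3 (Chr8.g54628), an enzyme of glycolysis that the name pattern also took in. Of 96 glycolysis genes 9 rose (median 0.19). Among these, 5 were plastid or NADP-linked forms of glyceraldehyde-3-phosphate dehydrogenase and aldolase, so the count is not of cytosolic glycolysis alone. SWEET14 (Chr11.g13279), a sugar exporter, had 34.0, 21.8 and 29.2 FPKM at 50 d, against 1.22, 0.614 and 0.208 FPKM at 20 d (log2 fold change 5.34 ± 0.58 SE, edgeR adjusted p = 0.00168), while SWEET4 (Chr6.g52016†) was lower, at means of 0.588 FPKM at 50 d and 5.47 FPKM at 20 d.

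Starch breakdown, beta-oxidation and the glyoxylate cycle had shares of called genes near the 1.66% over all tested genes. A beta-amylase (Chr17.g25523) was the only call among 58 starch breakdown genes (1.72%, median 0.38). It had 2.96, 6.62 and 5.8 FPKM at 50 d, against 0.104, 0.0589 and 0.319 FPKM at 20 d. Starch synthesis had no call among 32 (median 0.41). Of 116 triacylglycerol and GDSL lipases 3 rose and 1 fell (3.45%, median 0.27). In the list for beta-oxidation and the glyoxylate cycle 1 of 50 genes was called (2.0%, median 0.48). A log2 fold change above 0 was found for 84.0% of that list, beside 46.0% of all tested genes. The called gene is 2-isopropylmalate synthase (Chr5.g07616), an enzyme of leucine synthesis taken in through its name. Malate synthase (Chr6.g51605†), a defining enzyme of the glyoxylate cycle, had 3760, 3760 and 2120 FPKM at 50 d, against 2840, 826 and 3140 FPKM at 20 d, which overlap. It had a ratio of 50 d to 20 d of 1.41 and was not called (edgeR adjusted p = 0.667). In nitrogen assimilation and amino acid transport 7 of 132 rose and 2 fell (median 0.19), with 3 glutamate dehydrogenases and asparagine synthetase among the rises.

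Beta-glucosidases, which release aglycones from stored glucosides, gave 10 calls among 91 genes (median 0.52), all higher, of which 5 are the wall-active 1,3-beta-glucanases already counted. All 4 called genes named beta-glucosidase 12 were higher, with Chr11.g10799 at 111, 70.7 and 75.4 FPKM and its neighbour Chr11.g10793† at 76.3, 62.9 and 70.6 FPKM at 50 d, against 2.81, 4.24 and 7.74 FPKM and 2.53, 3.31 and 3.55 FPKM at 20 d. Mandelonitrile lyase, which acts after such enzymes in the release of cyanide from the amygdalin of rosaceous seeds, was called in 1 of 4 genes (Chr11.g10706), at 3.63, 9.71 and 2.46 FPKM at 50 d, against 0.301, 0.566 and 0.546 FPKM at 20 d.

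Among the cell division lists the share of called genes ran from 1.47% (DNA replication) to 9.52% (core histones), beside 1.66% over all genes. Of 63 core histone genes, whose products package newly made DNA, 6 were called higher (9.52%), while the list median was 0.10 and lay between -0.26 and 0.61 over the settings. Histone H3.2 (Chr5.g06125) had 25.9, 20.1 and 59.8 FPKM at 50 d, against 4.67, 5.48 and 6.02 FPKM at 20 d (log2 fold change 2.68 ± 0.49 SE, edgeR adjusted p = 0.00943). That call was lost in 12 of 22 settings, whereas the other 2 called H3.2 genes (Chr3.g20677† and Chr3.g20653†), at 23.4 and 30.3 FPKM at 50 d, against 1.05 and 1.63 FPKM at 20 d, lost theirs in 1 and 3. In the DNA replication list 1 of 68 genes was called (1.47%, beside 1.66% over all genes). It is the catalytic subunit of DNA polymerase alpha (Contig41.g59303), which starts DNA strands, and had 5.21, 5.03 and 3.83 FPKM at 50 d, against 0.915, 0.159 and 0.503 FPKM at 20 d.

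Of 99 kinesins, the motors of spindle and vesicles, only KIN-5C (Chr12.g37748) and KIN-14C (Chr10.g13976†) were called (2.02%, beside 1.66% over all genes), and 26.3% had no overlap between the stages, beside 25.8% over all genes. The median log2 fold change of the list was 0.87, but 0.44 without 50 d A, 0.54 without 20 d B and 0.39 with limma on log2(FPKM + 1). The kinesin motor domain had the highest median, 1.0 over 75 genes, among Pfam domains with many tested members. By library, the median of the kinesin list was 0.65 for 50 d A and B over 20 d A and C, and 1.03 for 50 d C over 20 d B. Of 26 tubulins 1 was called, an alpha tubulin (Chr5.g08101) that had 88.3, 55.0 and 49.0 FPKM at 50 d, against 19.6, 17.7 and 19.6 FPKM at 20 d. Of 78 cyclins and cyclin-dependent kinases 3 were called (3.85%), and the list median was 0.01. Cyclin-D3-3 (Chr15.g04236†), which drives entry into the cycle, and cyclin-dependent kinase inhibitor 7 (Chr2.g42589), which brakes it, both rose, to means of 21.2 and 22.2 FPKM at 50 d, against 4.18 and 4.47 FPKM at 20 d. Markers of root and shoot meristems had 1 call among 35, a fall of WUSCHEL-related homeobox 11 (Chr14.g47722) to 8.89, 9.09 and 8.70 FPKM at 50 d, against 34.6, 26.3 and 22.1 FPKM at 20 d.

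**Figure D5:**
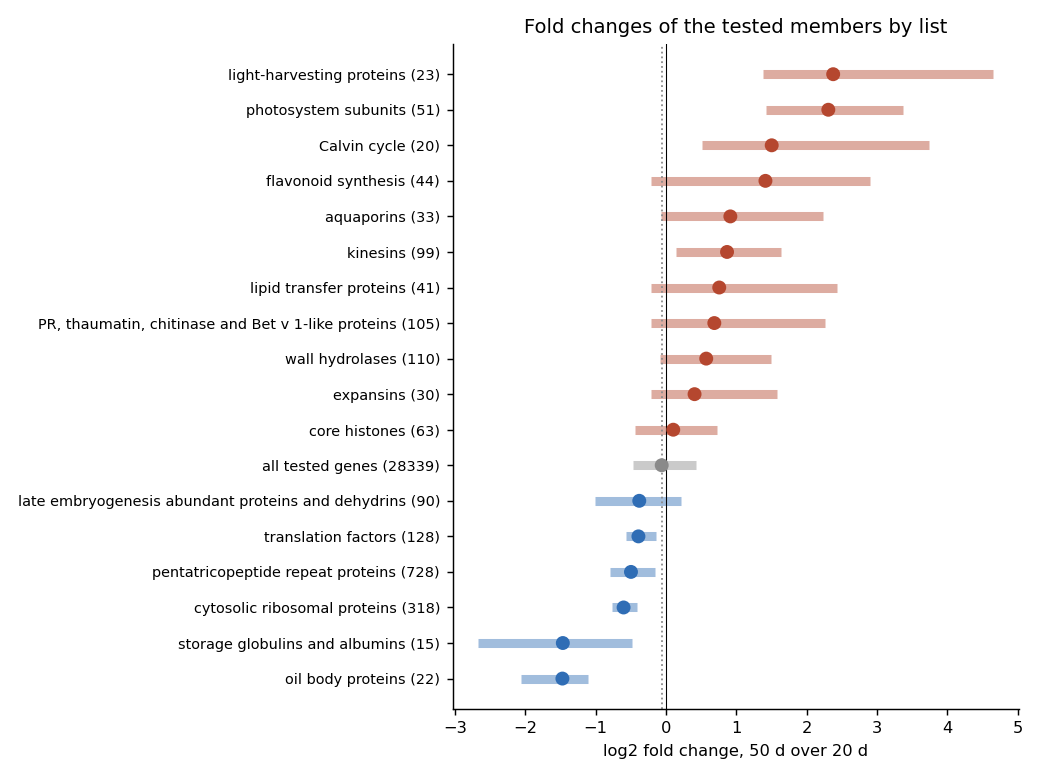
Median (dot) and interquartile range (bar) of the log2 fold change, 50 d over 20 d, of the tested members of 17 lists and of all tested genes (grey, median -0.06, dotted line), with the number of tested genes in brackets. Light-harvesting and photosystem genes lie furthest to the right with medians of 2.38 and 2.31, and storage and oil body proteins furthest to the left, both at -1.47.

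By list, the largest shares of called falls were in oil body and storage proteins, both products of seed maturation. Of the 72 called falls, 32 belonged to any list. Of 22 tested oil body proteins 5 were called lower and none higher (22.7% against 0.254% over all genes), the median log2 fold change was -1.47, and 1 member had a value above 0. Oleosin 5 (Chr9.g47150), a coat protein of oil bodies, had 244, 270 and 478 FPKM at 50 d, against 1320, 1660 and 1330 FPKM at 20 d (log2 fold change -2.15 ± 0.37 SE, edgeR adjusted p = 0.00728). Oil body-associated protein 1A (Chr5.g09552) had 32.8, 21.3 and 47.5 FPKM at 50 d, against 191, 263 and 194 FPKM at 20 d. Summed over the list, expression was 2520 to 6510 FPKM at 50 d, against 14800 to 20000 FPKM at 20 d, without overlap. None of the 5 calls was left without 20 d A, 20 d C, 50 d A or 50 d B, whereas 11 members were called without 20 d B and 50 d C together, and the list median stayed between -1.70 and -1.35 in all settings.

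Storage globulins and albumins, the protein reserves, had 2 called falls among 15 genes and the same median of -1.47. Legumin B (Chr5.g07109) had 123, 76.9 and 61.8 FPKM at 50 d, against 1070, 446 and 415 FPKM at 20 d (log2 fold change -2.90 ± 0.52 SE, edgeR adjusted p = 0.00808), and a vicilin type (Contig5.g17507) had 0.170, 0.135 and 0.113 FPKM at 50 d, against 2.43, 1.09 and 1.2 FPKM at 20 d. The list median was -1.59 for 50 d A and B over 20 d A and C, and -0.65 for 50 d C over 20 d B. No call was left in this list without 0 d A, 20 d A, 20 d C, 50 d B or 50 d C. The cupin domain, the fold of these globulins, gave 5 called falls among 22 genes and no rise, the others being a sucrose-binding protein (Chr3.g17866), at 85.3, 89.2 and 110 FPKM at 50 d, against 742, 260 and 669 FPKM at 20 d, and 2 genes without a Swissprot name (Chr8.g56134† and Chr8.g56132†).

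LEA proteins and dehydrins, which protect drying cells, were mixed, with 3 falls and 2 rises among 90 genes (median -0.38). A dehydrin (Chr15.g02573), the most abundant of all called genes at 20 d, had 591, 749 and 1330 FPKM at 50 d, against 7140, 5090 and 7160 FPKM at 20 d (log2 fold change -2.89 ± 0.43 SE, edgeR adjusted p = 0.00398). The rises were a desiccation-related protein PCC13-62 (Chr3.g17665†), at means of 219 FPKM at 50 d and 18.9 FPKM at 20 d, and NDR1/HIN1-like protein 12 (Chr12.g37664†), a defence-related protein that shares a LEA domain. Transcription factors that mark the maturing embryo (ABI3, FUS3, LEC and ABI5 types) had no call among 15 tested genes, and their summed level was 133 to 240 FPKM at 50 d and 88.5 to 305 FPKM at 20 d, with overlap.

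Among hormone lists gibberellin genes had the most calls, 3 higher and 3 lower of 52. The 3 falls were of gibberellin 2-beta-dioxygenases, the enzymes that inactivate gibberellin. Gibberellin 2-beta-dioxygenase 1 (Chr10.g15067, chromosome 10, 23714779 to 23716730) had 12.5, 20.6 and 29.5 FPKM at 50 d, against 69.0, 119 and 96.8 FPKM at 20 d (log2 fold change -2.21 ± 0.39 SE, edgeR adjusted p = 0.00822, lost in 11 of 22 settings). The neighbouring genes Chr5.g05826† and Chr5.g05827†, both named gibberellin 2-beta-dioxygenase 8, had means of 0.390 and 0.257 FPKM at 50 d, against 5.87 and 4.65 FPKM at 20 d. They were the only called genes of 5 tested with that name, whose median log2 fold change was 0.058, so the falls were not shared by all such genes. The rises were of gibberellin-regulated proteins 4 and 6, small cysteine-rich peptides, and of ent-copalyl diphosphate synthase (Chr11.g13139†), which opens gibberellin synthesis. Gibberellin-regulated protein 4 (Chr17.g25039) had 240, 257 and 419 FPKM at 50 d, against 31.5, 43.8 and 22.4 FPKM at 20 d (log2 fold change 3.20 ± 0.55 SE, edgeR adjusted p = 0.00677).

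Of the other hormone groups, 1 of 54 ethylene genes was called, 1-aminocyclopropane-1-carboxylate oxidase 1 (Chr15.g03051), which makes ethylene, at 52.6, 38.0 and 90.0 FPKM at 50 d, against 10.1, 3.26 and 5.58 FPKM at 20 d (log2 fold change 3.23 ± 0.46 SE, edgeR adjusted p = 0.00331). Among 110 auxin regulators the synthesis gene YUCCA10 (Chr3.g17729†) was higher, at means of 30.1 FPKM at 50 d and 1.30 FPKM at 20 d, and the repressor IAA13 (Chr2.g41336) was lower, with 4.61, 6.89 and 5.50 FPKM at 50 d, against 38.9, 42.5 and 30 FPKM at 20 d (log2 fold change -2.73 ± 0.34 SE, edgeR adjusted p = 0.00173). No gene of the lists for abscisic acid (54 tested, median -0.06), jasmonate (70), cytokinin (51) or brassinosteroids (35) was called, beside 1.66% over all genes. The 50 d and 20 d libraries did not overlap for 13.7 to 25.7% of their genes, beside 25.8% of all tested genes. Protein phosphatases 2C, which the paper describes as negative regulators of abscisic acid signalling, formed a separate list. Of its 104 genes, 2 were called higher and 1 lower (2.88%). The lower one, Chr4.g40430, had means of 3.07 FPKM at 50 d and 10.2 FPKM at 20 d (log2 fold change -1.75). Of 25 SAUR proteins, only SAUR36 (Scaffold7.g27918) was called. It was lower, at means of 4.54 FPKM at 50 d and 19.0 FPKM at 20 d (-2.09). The hormone lists together had 7 higher and 6 lower of 555 genes (2.34%).

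Transcription factors had 11 higher and 4 lower calls among 952 genes (1.58%, beside 1.66% over all genes). No gene was called among 85 NAC, 77 WRKY and 65 GRAS genes, whose median log2 fold changes were -0.29, -0.32 and -0.37. The stages did not overlap for 44.7%, 35.1% and 10.8% of these genes, beside 25.8% over all tested genes. The highest rise in level was of RAV2 (Chr17.g25338, chromosome 17, 4671974 to 4672939), a repressor with AP2 and B3 domains, at 80.2, 73.1 and 50.6 FPKM at 50 d, against 3.24, 2.24 and 4.18 FPKM at 20 d (log2 fold change 4.38 ± 0.52 SE, edgeR adjusted p = 0.00145). All 6 called MYB genes of 215 were higher, and among them were TT2 (Chr9.g45671†), which in Arabidopsis switches on tannin synthesis in the seed coat, at means of 4.94 FPKM at 50 d and 0.145 FPKM at 20 d, and an MYB4-type repressor (Chr7.g32992†) with 553 counts over the 50 d libraries and none at 20 d, at least 163-fold higher. TGA7 (Chr15.g00953), a bZIP factor that shares the DOG1 domain, and the bHLH factor HEC1 (Chr15.g02271) also rose, to means of 6.37 and 6.39 FPKM at 50 d, against 0.786 and 0.488 FPKM at 20 d.

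Regulators with called falls included MADS-box, AP2/ERF and phosphatidylethanolamine-binding family members. Both called MADS-box genes are named AGL24 and lie on chromosome 8 (Chr8.g55806 and Chr8.g55800), with 1.19, 2.21 and 2.26 FPKM and 0.224, 0.507 and 0.897 FPKM at 50 d, against 10.8, 23.5 and 18.9 FPKM and 5.35, 10.4 and 7.67 FPKM at 20 d (log2 fold changes -3.26 ± 0.39 and -3.89 ± 0.50 SE, edgeR adjusted p = 0.00147 and 0.00185). Of 4 tested genes named AGL24 only these 2 were called. Another, Chr15.g00612†, was more abundant, at means of 62.4 FPKM at 50 d and 114 FPKM at 20 d. Its libraries overlapped between the stages and it was not called (edgeR adjusted p = 0.209). ERF110 (Chr10.g17102) had 8.85, 16.5 and 18.6 FPKM at 50 d, against 55.3, 85.5 and 98.1 FPKM at 20 d. MOTHER of FT and TFL1 (Chr6.g50845), which in Arabidopsis responds to abscisic acid and gibberellin and controls germination, had 7.46, 10.6 and 16.1 FPKM at 50 d, against 110, 183 and 77.6 FPKM at 20 d (log2 fold change -3.47 ± 0.44 SE, edgeR adjusted p = 0.00173). Its call was lost in 3 of 22 settings and that of Chr8.g55806 in 1.

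Some large families had medians below 0 without any call. Cytosolic ribosomal proteins had a median log2 fold change of -0.60 over 318 genes, of which 18 had a value above 0, and none was called. Pentatricopeptide repeat (PPR) proteins, which process RNA in plastids and mitochondria, had a median of -0.50 over 728 genes, none called, and the DYW domain of RNA editing factors had the lowest median of the large Pfam domains, -0.61 over 136 genes. Translation factors stood at -0.39 over 128 genes. All 3 medians stayed below 0 in every setting, but that of ribosomal proteins ranged from -0.87 to -0.10 (without 20 d B), and summed ribosomal protein expression was 66000, 78600 and 135000 FPKM at 50 d, against 101000, 216000 and 110000 FPKM at 20 d, so the stages overlapped, through 50 d C. For PPR genes the median was -0.59 for 50 d A and B over 20 d A and C, and 0.04 for 50 d C over 20 d B. The part of the length-related deviation in these medians was not tested. Removal of its trend left them at -0.59, -0.46 and -0.36. That trend was taken out around the mean of each stage, which largely keeps the difference between stages whatever its source.

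Across all genes, 697 Pfam domains had at least 10 tested genes and 23 of them held at least 4 called genes. The Bet v 1 family led by number with 14, followed by 2OG-Fe(II) oxygenases, a large class of enzymes in flavonoid, gibberellin and ethylene metabolism, with 10 higher and 2 lower of 98. Among these 23, by share, the chalcone synthase domain (41.7%), the chlorophyll a-b binding domain (36.4%) and the BURP domain (36.4%, with 2 of 11 higher and 2 lower) came before oleosin, where 4 of 12 genes fell (33.3%) and none of the 12 had a value above 0, and Bet v 1 (32.6%). PsbP, the domain of oxygen-evolving enhancer 2, gave 4 of 17 (median 1.67). Plastocyanin-like domains gave 5 of 28, all higher, of which 3 are named uclacyanin 1 or early nodulin-like protein 1, copper-fold proteins of the cell surface, and 2 have no name. Among families with many tested genes, receptor-like kinases had 1 call in 458 and disease resistance NB-ARC proteins 1 in 300.

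The change from 20 d to 50 d was set against the change from 0 d to 20 d in a single contrast, in which the 20 d libraries enter both changes. Over all tested genes 103 (0.363%) differed at an adjusted p of at most 0.01, and among the 470 called genes 14 did, 13 of the higher and 1 of the lower. Major allergen Pru av 1 (Chr16.g29977), a Bet v 1 protein, averaged 6.32 FPKM at 0 d, 0.464 FPKM at 20 d and 39.6 FPKM at 50 d (edgeR adjusted p of the difference = 0.00247). E2FE (Chr6.g51334†), an atypical E2F that in Arabidopsis restrains endoreduplication, had 3.17 FPKM at 0 d, 0.310 FPKM at 20 d and 3.25 FPKM at 50 d (difference of the log2 changes 6.57, edgeR adjusted p = 0.00604). The other higher genes that differed, besides ACR11, were CP26, both anthocyanidin reductases, 2 glucan endo-1,3-beta-glucosidases 14, a histone H3.2, polyketide synthase 5, Major allergen Mal d 1, sucrose synthase 6 and a DnaJ chaperone. Their lowest mean was at 20 d, but the early fall missed an adjusted p of 0.01 for CP26 (edgeR adjusted p = 0.0498), the anthocyanidin reductases Chr5.g05868 (0.0571) and Chr10.g13984† (0.0156), histone H3.2 Chr3.g20677† (0.147), polyketide synthase 5 (0.0188) and sucrose synthase 6 (0.0134).

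The 1 gene of the 14 that fell late, BURP domain-containing protein 3 (Chr8.g55781), had a mean of 11.4 FPKM at 0 d, 52.5 FPKM at 20 d and 3.79 FPKM at 50 d (difference -6.08, edgeR adjusted p = 0.00882). For ACR11 (Scaffold1.g05149†), a protein with ACT domains, both changes were rises and the later one was smaller, 1.78 on the log2 scale against 5.34 before. The number of called genes that differed was 0 without 0 d A, 0 d B, 0 d C, 20 d A or 20 d C, 5 without 50 d B, 9 without 50 d A and 88 without 20 d B.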

How the data were processed

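The deposited table gave, for each of 9 RNA-seq libraries, a count of reads and an FPKM value per gene, which the authors had made by aligning Illumina reads with Hisat2 to the wild pear genome. The counting tool and the tool versions are unknown here. The authors' own stage means, log2 fold changes and p-values in that table were not used. Raw counts were fitted with edgeR 4.0.16 in R 4.3.3 (TMM factors, filterByExpr by stage, glmQLFTest, all 9 libraries, contrast of 50 d and 20 d). SE is the log2 fold change divided by the square root of F. FPKM values describe levels. DESeq2 1.42.0 and limma 3.58.1 served as alternatives, and scripts were tested on simulated data. Bounds against stages without counts use a floor of 3 counts over the stage, and intervals are exact 95% intervals of counting error only. The libraries are labelled as biological replicates. The letters A, B and C were not treated as pairs in the main fit. Gene lists followed Swissprot names and Pfam domains, and a fixed rule named genes: the 6 largest rises and falls in mean FPKM, the 5 largest and smallest log2 fold changes with at least 10 counts in each stage, the called gene with the highest mean FPKM of each list, and called genes with qRT-PCR primers in the study. The comparison, members and lists were chosen with earlier results of these data known.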

Additional observations from a re-analysis of the deposited data

How the results depend on the processing

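Counts of called genes (main setting 470, of which 398 were higher and 72 lower at 50 d, and 14 differed from the early change) moved with most settings. DESeq2 called 1620 (1253 higher, 367 lower, 236 differing), no low-count filter 988 (811, 177, 99), an adjusted p of 0.05 1483 (1139, 344, 173), limma on log2(FPKM + 1) 978 (879, 99, 56), limma on log2(FPKM + 0.1) 750 (646, 104, 53), removal of the gene-length trend 1066 (813, 253, 116), and the fit without 20 d B and 50 d C 904 (711, 193, 206). Fewer were called with at least 1 FPKM in both stages, 227 (171, 56, 8), with glmTreat, 144 (133, 11, 10), and with the 6 libraries alone, 0 (0 and 0, late against early not testable). Size factors of DESeq2 within edgeR gave 467 and no FPKM limit 474. Loosening or tightening the p limit, the FPKM limit or the filter moves the count by construction, and the cause of the other changes was not tested. Leaving out 1 library at a time gave 75 to 598 called genes, 64 to 493 higher, 9 to 105 lower and 0 to 88 differing.

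The replicate block left 50 calls (47 higher, 3 lower, 0 differing). The deviations of same-lettered libraries of 50 d and 20 d from their stage means correlated at 0.552 for A, -0.389 for B and -0.561 for C. These values cannot decide whether the letters pair the libraries. In each stage the library that stands apart, 50 d C and 20 d B (correlated at 0.723), dominates the deviations. With 3 libraries a stage, of which 1 stands apart in each, a gene that was not called cannot be taken as unchanged. All 470 genes kept their direction in the 22 settings, which their lack of overlap between the stages largely fixed beforehand.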
